A study of Homo sapiens with 8 samples.

Results

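The 36 genes described here act in homologous recombination, the Fanconi anaemia pathway, mismatch repair and the ATM and ATR checkpoint. They were picked by gene symbol from a table of 19447 genes, and all 36 were found there and passed the filter on low counts. RNA was sequenced from K562, a human leukaemia cell line grown in suspension, which the labels give as wild type. There were 3 libraries from cells given 10 µM Lip-1 for 24 h (replicates 2, 3 and 4, labelled Day 1), 1 library from cells given 20 µM Lip-1 for 24 h (replicate 1, Day 1) and 4 control libraries with no Lip-1 (numbered 1 to 4, Day 0). The labels do not spell out Lip-1, a short name in common use for liproxstatin-1, which blocks lipid peroxidation and the iron-dependent form of cell death called ferroptosis. They do not say whether controls were given a solvent, and an effect of Lip-1 and of the extra day cannot be told apart. They also do not say whether replicates came from separate cultures, so p-values measure only the spread between these libraries.

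Homologous recombination repairs a double-strand break by copying the intact sister chromatid, and it is used mostly in the S and G2 phases of the cell cycle. The broken end is first cut back to a single strand, BRCA1 and its partners bring in BRCA2, BRCA2 and several accessory proteins start the search for the intact copy, and the joined molecules are later taken apart by the BLM complex. The Fanconi proteins detect and unhook crosslinks between the strands, mismatch repair corrects copying errors, and ATM and ATR signal breaks and stalled forks to the checkpoint kinases CHEK2 and CHEK1. Many of these genes are transcribed most strongly in cycling cells, in part through E2F transcription factors. K562 lacks functional p53 and divides rapidly.

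Libraries held 71151415 to 72660803 counts at 10 µM, 124240276 at 20 µM and 79063246 to 141307169 in the controls. Levels are given as CPM, the count per 1000000 counts of the scaled library. All 15 markers of the K562 line (among them GATA1, KLF1 and the fetal globin genes) were above 1 CPM in each of the 8 libraries, and their summed level was 5188 to 6200 CPM at 10 µM, 3843 at 20 µM and 6511 to 10646 in the controls. At 10 µM 7 of the 15 fell and 1 rose (9.79% and 9.34% of all genes tested did), and the part of this in later results was not tested. Of 14 markers of other blood cells and tissues, 2 to 3 were at 0 in the treated libraries and 3 to 4 in the controls, ELANE in every library. However, 7 to 8 of the 14 reached 1 CPM in the treated libraries and 6 to 8 in the controls. Among these were KRT8, KRT18, EPCAM and CD3D, with control means of 322, 388, 41.6 and 15.1 CPM. Library names in letters (the 20 µM library, 10 µM replicate 4 and controls 1 and 4) or digits (the other 4) go with a difference: LYZ, a myeloid marker, was at 98.1 CPM in 10 µM replicate 4 and at 122 and 125 in controls 1 and 4, but between 18.2 and 25.7 in the other 5 libraries, the 20 µM library included. The labels do not call this naming a batch. The 20 µM library and control 1 also stood apart together in some genes. SLX1A was at 0.67 and 1.31 CPM in them and at 51.0 to 70.6 CPM in the rest. MDC1 was at 193 and 177 CPM in them, beside 56.7 to 67.7 CPM in the rest. They also held the most counts (124240276 and 141307169). The part of this in later results was not tested.

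The main feature of the 36 genes was a lower level in the 20 µM library. That library had the lowest level of all 8 in 28 of the 36 genes (77.8%), where over all tested genes it was lowest in 31.9%, and the highest in 0 of the 36, against 33.6% over all tested genes. EXO1, an exonuclease that cuts back broken ends, stood at 33.7 CPM in the 20 µM library, 25.1% of the control mean. CLSPN, the adaptor through which ATR activates CHEK1, stood at 27.8% of its control mean, RAD54B at 30.3%, RAD54L at 31.4% and MSH6 at 33.5%. In all, 14 genes were under 50% of the control mean in this library, 14 between 50% and 80%, and 8 at 80% or more. The shares of all tested genes in these bins were not determined. This library was below every control in 31 of the 36 (86.1%), beside 37.9% of all tested genes. Because 20 µM has 1 library, this has no replicate check. What sets that library apart together with control 1 was not separated from the dose. In bulk RNA, fewer cells that express a gene and less of its RNA per cell cannot be told apart.

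**Figure D1:**
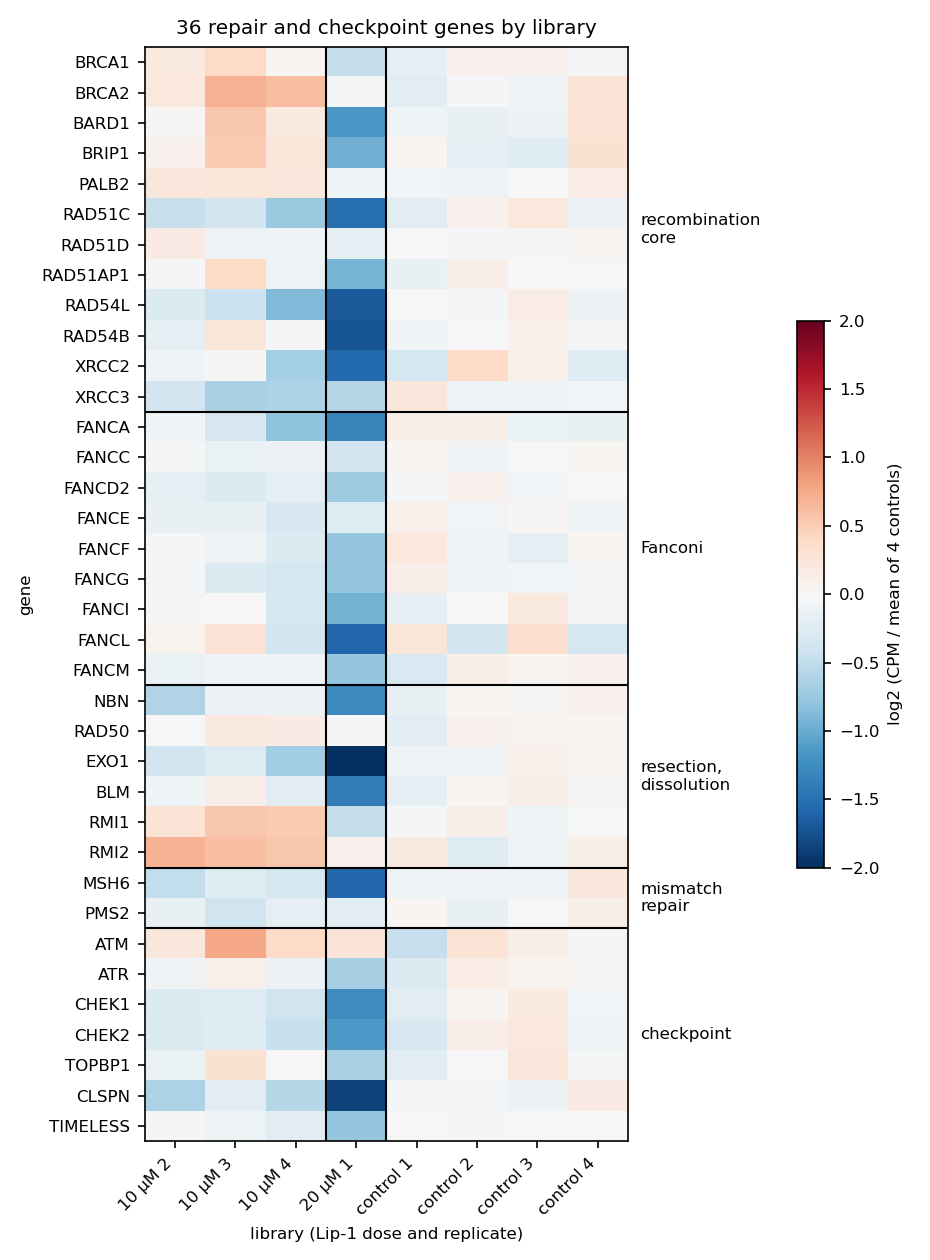
Heat map of the 36 genes (rows, grouped by role) in the 8 libraries (columns), coloured by the log2 ratio of CPM to the mean of the 4 controls. The 20 µM column is the lowest of the 8 in 28 genes, while the 3 columns at 10 µM hold both higher and lower values.

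Set against the controls, the 4 treated libraries together gave few calls. Of the 36 genes, 1 fell and 0 rose, and that was XRCC3, at -0.55 on the log2 scale (SE 0.13, edgeR adjusted p = 0.0314). Over all 13101 genes tested, 6.69% fell and 7.47% rose. The median log2 fold change of the 36 was -0.25, with 27 of them negative (75.0%), beside a median of 0.08 and 44.3% negative over all genes tested. At an unadjusted p under 0.05 there were 8 lower and 2 higher, 27.8% of the 36, beside 34.0% of all genes in either direction. DESeq2 called 3 lower and 1 higher (RAD51C, RAD54L, XRCC3 and RMI2), and it called 25.9% of all genes. With the replicate number as a block, 3 genes fell: XRCC3 (-0.55, adjusted p = 0.0369), RAD51C (-0.76, adjusted p = 0.0251) and CHEK2 (-0.51, adjusted p = 0.0417), while 21.5% of all genes were called with the block. Every treated library was below every control in 9 of the 36 (14.4% of all genes were) and above in 0 (13.6% of all genes were). This count leans on single libraries, as do the calls over all genes. Without the 20 µM library 9 genes were called (6 lower and 3 higher), and so were 22.9% of all genes. The call of XRCC3 was lost without 10 µM replicate 3 or 4, or any 1 control (adjusted p = 0.0689 to 0.0887). Its log2 fold change was then -0.47 to -0.59. With any of these libraries left out, 0.475% to 6.06% of all genes were called, beside 14.2% with all 8.

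At 10 µM alone the set split. Against the controls, 5 of the 36 genes fell (9.79% of all 14857 genes tested did) and 3 rose (9.34% of all genes did). At an unadjusted p under 0.05 there were 8 lower and 4 higher, 33.3% of the 36, beside 33.0% of all genes in either direction. XRCC3, RAD51C, RAD54L, EXO1 and CLSPN fell, and BRCA2, RMI1 and RMI2 rose. The median log2 fold change of the 36 was -0.11, beside 0.05 over all genes tested. Every 10 µM library was below every control in 9 genes (15.5% of all genes) and above in 3 (15.8% of all genes). The share called was near that of all genes in each direction. DESeq2 added MSH6 and CHEK1 to the calls, with 7 lower and 3 higher, beside 25.6% of all genes called. The replicate block gave 12 calls in the 36, beside 31.3% of all genes.

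**Figure D2:**
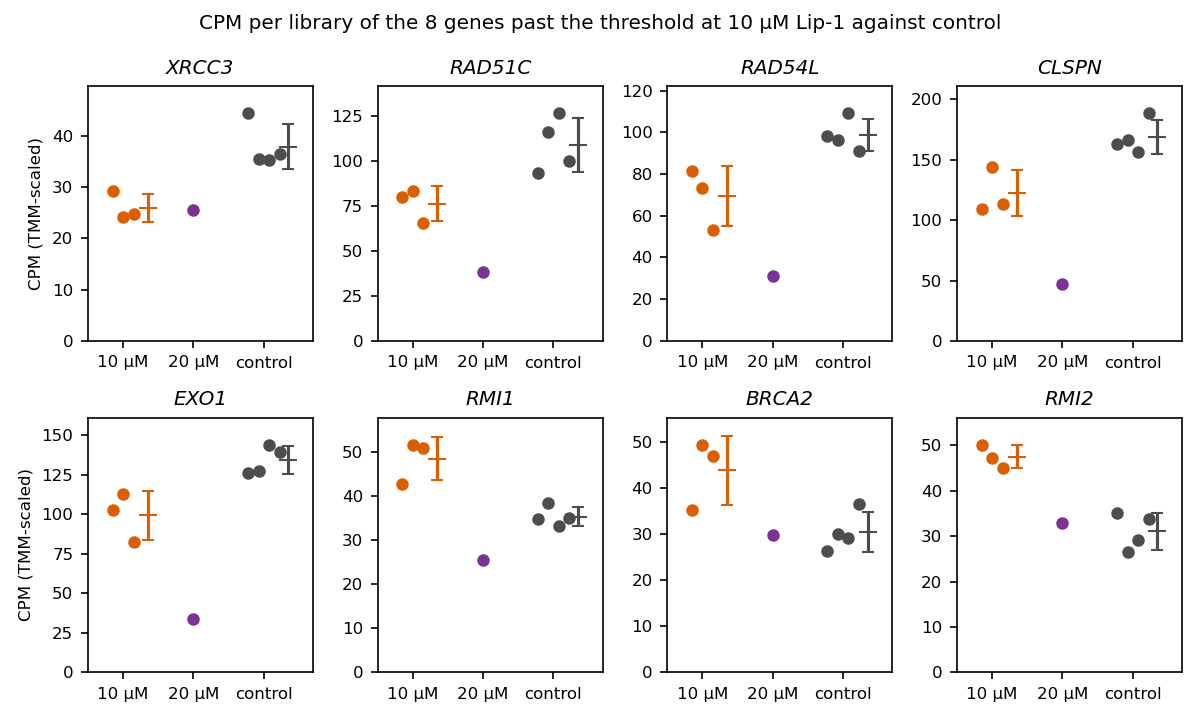
CPM in each library (points) of the 8 genes past the threshold at 10 µM against control, with mean and SD beside the 3 libraries at 10 µM and the 4 controls, and the single 20 µM library between them. The libraries at 10 µM lie apart from the controls in each gene but BRCA2, where 1 library of 10 µM (35.3 CPM) lies below control 4 (36.5 CPM).

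The 20 µM library set against the 3 libraries at 10 µM in the same fit, with its spread assumed to be that of the others, gave 24 of the 36 genes lower (14.6% of all genes were) and 0 higher (11.7% of all genes were). The log2 difference was negative in 35 of 36 genes, with a median of -0.79 beside 0.01 over all genes tested. With DESeq2 the median was -0.76 in the 36 and 0.04 over all genes tested. The library was below 10 µM replicates 2, 3 and 4 in 35, 34 and 34 genes, with median log2 ratios of -0.75, -0.93 and -0.65. Only replicate 4 of these has a library name in letters, as the 20 µM library does, and against it the ratio was the smallest. With the replicate number as a block the median was -0.70 in the 36 and -0.06 over all genes tested. There BRCA1, RAD51AP1, FANCD2, FANCI, FANCM, ATR, CHEK2 and TOPBP1 lost their calls. Both contrasts of this fit use the same 10 µM libraries, so their values for a gene are given side by side and are not independent.

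**Figure D3:**
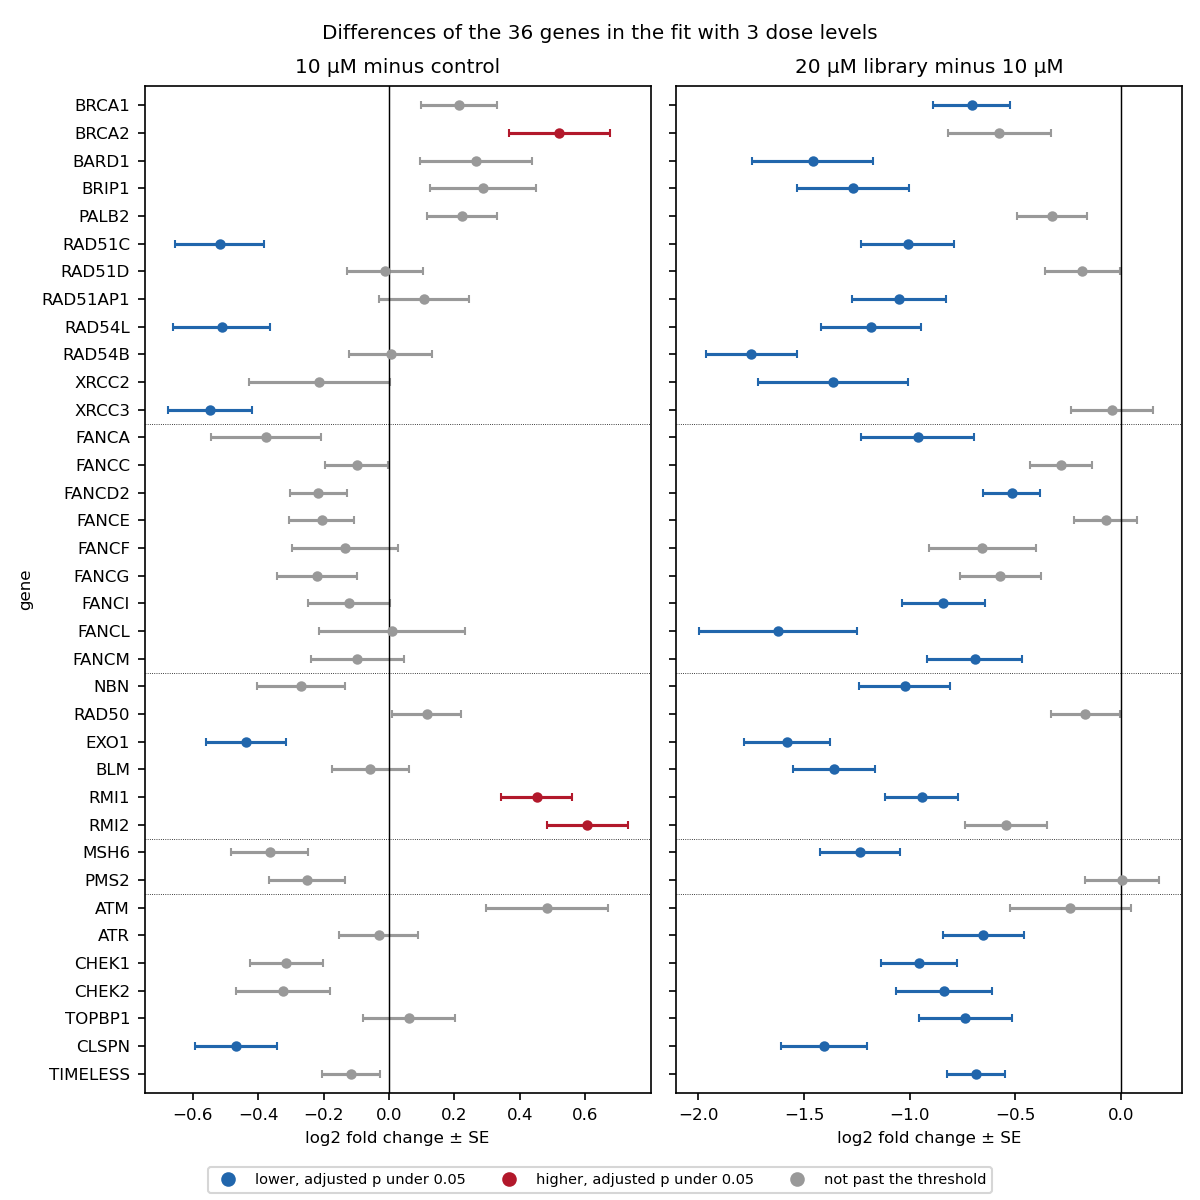
Log2 fold changes with SE of the 36 genes for 10 µM minus control (left) and for the 20 µM library minus 10 µM (right), from edgeR. On the left 5 genes are past the threshold below 0 and 3 above it, and on the right 24 are past it, all below 0.

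Promoter sequences are printed for 6 of the genes, taken role by role as those with the smallest p in all treated libraries against control that could be matched, with a second one from the recombination genes, because E2F transcription factors act through short sites near the start of many such genes. They come from RefSeq on GRCh38.p14, run 5′ to 3′ on the strand of the gene from 250 bases before the annotated start to 50 bases after it, and show in capitals each match to an E2F word (TTTCCCGC, TTTCGCGC, TTTGCCGC or TTTGGCGC), to the CHR element TTTGAA or to a CCAAT box, on either strand. XRCC3 is at chr14:103715402-103715701 on the minus strand and RAD51C at chr17:58692323-58692622 on the plus strand. FANCD2 is at chr3:10026187-10026486 and EXO1 at chr1:241847954-241848253, both on the plus strand. MSH6 is at chr2:47782895-47783194 on the plus strand and CLSPN at chr1:35769929-35770228 on the minus strand.
XRCC3: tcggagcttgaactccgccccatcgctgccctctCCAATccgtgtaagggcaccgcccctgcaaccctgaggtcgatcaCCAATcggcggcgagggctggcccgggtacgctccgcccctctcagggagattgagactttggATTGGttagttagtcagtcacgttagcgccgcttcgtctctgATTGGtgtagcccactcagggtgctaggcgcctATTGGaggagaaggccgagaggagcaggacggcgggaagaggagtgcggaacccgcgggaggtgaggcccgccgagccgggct
RAD51C: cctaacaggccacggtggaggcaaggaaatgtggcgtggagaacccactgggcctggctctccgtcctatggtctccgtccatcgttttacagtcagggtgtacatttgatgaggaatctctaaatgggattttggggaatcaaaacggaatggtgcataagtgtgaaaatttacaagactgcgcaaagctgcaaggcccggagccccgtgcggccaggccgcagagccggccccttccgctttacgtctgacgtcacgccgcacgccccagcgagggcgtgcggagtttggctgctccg
FANCD2: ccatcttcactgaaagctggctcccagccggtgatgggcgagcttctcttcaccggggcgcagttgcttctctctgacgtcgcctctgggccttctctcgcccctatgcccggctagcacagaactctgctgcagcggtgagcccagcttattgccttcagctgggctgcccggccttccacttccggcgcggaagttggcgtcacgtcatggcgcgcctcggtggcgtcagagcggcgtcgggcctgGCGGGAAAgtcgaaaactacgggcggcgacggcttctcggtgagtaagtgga
EXO1: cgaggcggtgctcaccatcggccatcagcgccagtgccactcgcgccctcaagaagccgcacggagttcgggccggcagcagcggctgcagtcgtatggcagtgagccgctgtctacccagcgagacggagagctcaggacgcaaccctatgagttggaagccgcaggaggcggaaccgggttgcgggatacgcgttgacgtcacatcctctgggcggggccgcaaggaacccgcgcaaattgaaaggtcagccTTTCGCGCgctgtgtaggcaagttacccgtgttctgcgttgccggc
MSH6: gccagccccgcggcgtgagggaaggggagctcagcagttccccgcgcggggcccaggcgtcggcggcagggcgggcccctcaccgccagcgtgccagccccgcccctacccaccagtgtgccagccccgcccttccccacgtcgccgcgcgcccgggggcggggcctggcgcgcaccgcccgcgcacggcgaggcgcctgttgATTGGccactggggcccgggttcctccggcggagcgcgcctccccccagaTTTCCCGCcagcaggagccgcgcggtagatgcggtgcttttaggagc
CLSPN: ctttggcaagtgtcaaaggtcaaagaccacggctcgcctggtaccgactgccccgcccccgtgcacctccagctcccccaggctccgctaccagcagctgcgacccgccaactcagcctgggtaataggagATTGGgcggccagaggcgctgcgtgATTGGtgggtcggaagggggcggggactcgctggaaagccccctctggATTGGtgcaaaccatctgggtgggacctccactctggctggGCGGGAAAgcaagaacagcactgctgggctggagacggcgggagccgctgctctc

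Counting the annotated start base as position 0, the E2F word of FANCD2 spans positions -2 to 5, that of EXO1 4 to 11, that of MSH6 3 to 10 and that of CLSPN -5 to 2. XRCC3 holds 5 CCAAT boxes and no E2F word, and RAD51C holds none of these words. Among the 32 genes matched to the promoter table, 9 hold an E2F word (28.1%): XRCC2, FANCA, FANCC, FANCD2, EXO1, MSH6, PMS2, TOPBP1 and CLSPN. The word is in 5.36% of the promoters of tested genes and in 3.33% of all 27305 promoters in the table. A CCAAT box is in 17 of the 32 (53.1%, beside 36.8% of the promoters of tested genes) and the CHR element in 3 (9.38%, beside 9.97%). RAD54B, FANCI, NBN and RMI2 were not matched. The 9 genes with an E2F word had a median log2 fold change of -0.25 at 10 µM against control and -0.96 in the 20 µM library against 10 µM, and the 23 without one had -0.03 and -0.69. Of the 9, 7 were lower in the 20 µM library than at 10 µM, as were 14 of the 23. These groups share libraries and were not tested against each other.

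Among XRCC2, XRCC3, RAD51C and RAD51D, which form small complexes that assist strand exchange, XRCC3 and RAD51C fell at 10 µM. XRCC3 (ENSG00000126215, chromosome 14, 103697609 to 103715504 on hg38) had 29.2, 24.1 and 24.8 CPM in the 3 libraries at 10 µM and 25.6 CPM at 20 µM, against 44.4, 35.5, 35.3 and 36.5 CPM in controls 1 to 4. Every treated library was below every control, and the 20 µM library lay among those at 10 µM. The log2 fold change at 10 µM was -0.55 (SE 0.13, edgeR adjusted p = 0.0201), and between the 20 µM library and 10 µM it was -0.04 (adjusted p = 0.894). XRCC3 lost its call at 10 µM without 10 µM replicate 3 or 4 (adjusted p = 0.0896 and 0.0830). Its exons overlap those of KLC1 on the other strand by up to 1853 bases, and the sources used here do not say whether counting used strand. KLC1 itself had a log2 fold change of -0.04 at 10 µM (adjusted p = 0.791).

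RAD51C (ENSG00000108384, chromosome 17, 58692573 to 58735611) had 80.2, 83.3 and 65.4 CPM at 10 µM and 38.4 CPM at 20 µM, against 93.3, 116, 127 and 100 CPM in the controls. It was below every control in every treated library, with the 20 µM library the lowest. The log2 fold change was -0.52 at 10 µM (SE 0.14, edgeR adjusted p = 0.0307) and -1.01 between the 20 µM library and 10 µM (SE 0.22, adjusted p = 0.00978). The call at 10 µM was lost without 10 µM replicate 3 or 4, or control 2 or 3 (adjusted p = 0.0557 to 0.0903). XRCC2 averaged 94.4 ± 22.8 CPM at 10 µM and 109 ± 26.1 CPM in the controls (SD, n = 3 and 4), a difference within the spread of the unpaired libraries, and was at 37.1 CPM in the 20 µM library. With the replicate block its log2 fold change at 10 µM was -0.32 (edgeR adjusted p = 0.0525), beside -0.21 without it (adjusted p = 0.549). RAD51D, which ranks lowest of the 36 per length (8.75 TPM in the controls), had 23.1 to 27.9 CPM at 10 µM, 22.1 CPM at 20 µM and 24.4 to 26.0 CPM in the controls.

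RAD54L and RAD54B are motor proteins that help to pair the broken end with its template, and both were low in the 20 µM library. RAD54L (ENSG00000085999, chromosome 1, 46247688 to 46278473) had 81.5, 73.4 and 53.3 CPM at 10 µM and 31.0 CPM at 20 µM, against 98.2, 96.5, 109 and 90.8 CPM in the controls, with no overlap between treated and control libraries. At 10 µM it fell by 0.51 on the log2 scale (SE 0.15, edgeR adjusted p = 0.0408). That call was lost without 10 µM replicate 3 or 4, or any 1 control (adjusted p = 0.0579 to 0.103). RAD54B showed no such difference at 10 µM (28.4 to 38.5 CPM, against 31.2 to 34.9 CPM in the controls) and had the largest fall of the 36 between the 20 µM library and 10 µM, -1.75 (SE 0.22, adjusted p = 0.000950). RAD51AP1, which aids pairing, had 43.9 to 61.8 CPM at 10 µM and 24.8 CPM at 20 µM, against 42.2 to 51.4 CPM in the controls.

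BRCA1, its partner BARD1, the bridging protein PALB2 and the helicase BRIP1 all had positive log2 fold changes at 10 µM (0.21 to 0.29), none past the threshold. BRCA2, a mediator of strand exchange, was the 1 gene of this group to rise. BRCA2 (ENSG00000139618, chromosome 13, 32315474 to 32400266) had 35.3, 49.4 and 46.9 CPM at 10 µM and 29.8 CPM at 20 µM, against 26.3, 30.0, 29.1 and 36.5 CPM in the controls. Replicate 2 at 10 µM lay within the range of the controls, as did the 20 µM library. The log2 fold change at 10 µM was 0.52 (SE 0.15, edgeR adjusted p = 0.0455), and it was not past the threshold without 10 µM replicate 3 or 4, or control 1, 2 or 3 (adjusted p = 0.0787 to 0.171). In the 20 µM library against 10 µM, BARD1 (-1.46), BRIP1 (-1.27) and BRCA1 (-0.71) were lower, while PALB2 (-0.33) and BRCA2 (-0.58) were not past the threshold. PALB2 lay between 31.8 and 32.2 CPM in the 3 libraries at 10 µM, above every control (25.4 to 30.3 CPM), at an adjusted p of 0.185.

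The 9 Fanconi genes had log2 fold changes at 10 µM between -0.38 and 0.01, 8 of them negative, and edgeR called 0 of the 9 at 10 µM and 0 in all treated libraries against control. At an unadjusted p under 0.05 there was 1 at 10 µM and 2 in all treated libraries (33.0% and 34.0% of all genes were). DESeq2 called 0 in either comparison. FANCA, the scaffold of the core complex that attaches ubiquitin to FANCD2 and FANCI, had 131, 110 and 79.1 CPM at 10 µM and 55.4 CPM at 20 µM, against 152, 149, 126 and 125 CPM in the controls. Replicate 2 at 10 µM overlapped the controls, and the log2 fold change was -0.38 (SE 0.17, edgeR adjusted p = 0.156), or -0.35 with the replicate block (adjusted p = 0.0466). FANCD2 had 153, 144 and 153 CPM at 10 µM and 106 CPM at 20 µM, against 170, 185, 167 and 173 CPM in the controls. Every treated library of FANCD2 was below every control, yet the log2 fold change at 10 µM, -0.22 (SE 0.09), had an adjusted p of 0.116. FANCI, the partner of FANCD2 and the most abundant Fanconi gene per length (142 TPM in the controls), had 218 to 279 CPM at 10 µM, 145 CPM at 20 µM and 248 to 317 CPM in the controls.

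In the 20 µM library against 10 µM, 5 of the 9 Fanconi genes were lower. FANCL, the ligase subunit of the core complex, was lower by the most, -1.62 (SE 0.37, edgeR adjusted p = 0.0128), with 12.2 CPM at 20 µM, 28.2 to 44.8 CPM at 10 µM and 28.5 to 46.4 CPM in the controls. The others were FANCA (-0.96), FANCI (-0.84), FANCM (-0.69), a DNA translocase, and FANCD2 (-0.52). FANCA lost its call without 10 µM replicate 2 or 3 (adjusted p = 0.0502 and 0.0655). FANCM lost its call without any 1 library at 10 µM or without control 2, 3 or 4 (adjusted p = 0.0621 to 0.0899). The core complex genes FANCC (-0.28), FANCE (-0.07), FANCF (-0.66) and FANCG (-0.57) were not past the threshold, although FANCG reached it without 10 µM replicate 4 (adjusted p = 0.0478) and without control 1 (0.0495).

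Among the genes of end resection and junction dissolution, EXO1 fell and the RMI genes rose at 10 µM. EXO1 (ENSG00000174371, chromosome 1, 241847967 to 241895148) had 103, 113 and 82.7 CPM at 10 µM and 33.7 CPM at 20 µM, against 126, 128, 144 and 139 CPM in the controls. Treated and control libraries did not overlap, and the 20 µM library was the lowest by far. The log2 fold change was -0.44 at 10 µM (SE 0.12, edgeR adjusted p = 0.0367) and -1.58 between the 20 µM library and 10 µM (SE 0.20, adjusted p = 0.00109). At 10 µM the call was lost without 10 µM replicate 2 or 4, or control 2, 3 or 4 (adjusted p = 0.0551 to 0.0933).

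RMI1 and RMI2 are small subunits that hold BLM and a topoisomerase together to separate joined DNA molecules. RMI2 (ENSG00000175643, chromosome 16, 11249619 to 11381662) had 50.1, 47.3 and 45.01 CPM at 10 µM and 33.0 CPM at 20 µM, against 35.2, 26.4, 29.04 and 33.7 CPM in the controls. It was above every control in each library at 10 µM and within their range at 20 µM, with the largest rise of the 36 at 10 µM, 0.61 (SE 0.12, edgeR adjusted p = 0.0114), lost without 10 µM replicate 3 (adjusted p = 0.0527). RMI1 (ENSG00000178966, chromosome 9, 83980711 to 84004074) had 42.9, 51.7 and 51.0 CPM at 10 µM and 25.6 CPM at 20 µM, against 34.8, 38.5, 33.3 and 35.1 CPM in the controls. It was thus above every control at 10 µM and below every control at 20 µM. Its log2 fold change was 0.45 at 10 µM (SE 0.11, edgeR adjusted p = 0.0213) and -0.94 between the 20 µM library and 10 µM (SE 0.17, adjusted p = 0.00499), and the call at 10 µM was lost without 10 µM replicate 3 or 4, or control 3 or 4 (adjusted p = 0.0532 to 0.0893).

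BLM, the helicase of that complex, did not follow RMI1 and RMI2 past the threshold at 10 µM. It had 74.8 to 96.2 CPM at 10 µM and 33.5 CPM at 20 µM, against 77.0 to 95.3 CPM in the controls, and was lower in the 20 µM library than at 10 µM by 1.36 on the log2 scale (adjusted p = 0.00173). NBN and RAD50 belong to the complex that first binds a broken end. NBN had a log2 fold change of -0.27 at 10 µM (adjusted p = 0.204) and -1.02 between the 20 µM library and 10 µM (adjusted p = 0.00882). RAD50 was not past the threshold in any comparison, with 153 to 176 CPM at 10 µM, 151 CPM at 20 µM and 133 to 163 CPM in the controls.

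The mismatch repair genes were MSH6, which recognises mismatches, and PMS2, which cuts the strand to be corrected. MSH6 had 185, 218 and 203 CPM at 10 µM and 87.0 CPM at 20 µM, against 246, 243, 245 and 305 CPM in the controls, with no overlap. Its log2 fold change at 10 µM was -0.36 (SE 0.12, edgeR adjusted p = 0.0587), or -0.39 with the replicate block (adjusted p = 0.0211), and DESeq2 gave an adjusted p of 0.0136. Between the 20 µM library and 10 µM it was -1.24 (SE 0.19, adjusted p = 0.00231). MSH6 shares up to 1469 exon bases with FBXO11 on the other strand, and FBXO11 had a log2 fold change of 0.29 at 10 µM (adjusted p = 0.172). PMS2 had 29.9, 25.1 and 28.98 CPM at 10 µM and 28.4 CPM at 20 µM, against 34.1, 29.8, 33.1 and 35.9 CPM in the controls. Only replicate 2 at 10 µM reached into the control range, the adjusted p was 0.172, and PMS2 was the 1 gene of the 36 whose difference between the 20 µM library and 10 µM was not negative (0.0038, SE 0.18). PMS2 has many near-identical pseudogene copies, so how its counts were assigned is uncertain.

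In the checkpoint group CLSPN fell at 10 µM. CLSPN (ENSG00000092853, chromosome 1, 35720218 to 35769967) had 109, 144 and 114 CPM at 10 µM and 46.8 CPM at 20 µM, against 163, 167, 156 and 189 CPM in the controls, with no overlap. Its log2 fold change was -0.47 at 10 µM (SE 0.13, edgeR adjusted p = 0.0321) and -1.40 between the 20 µM library and 10 µM (SE 0.20, adjusted p = 0.00187). The call at 10 µM was lost without 10 µM replicate 2 or 4, or control 2, 3 or 4 (adjusted p = 0.0537 to 0.104). CHEK1, the kinase downstream of CLSPN and ATR, was below every control in each treated library (72.8 to 79.8 CPM at 10 µM, 40.4 CPM at 20 µM and 83.0 to 110 CPM in the controls), with a log2 fold change at 10 µM of -0.31 (edgeR adjusted p = 0.0836), or -0.37 with the replicate block (adjusted p = 0.0177). CHEK2 had -0.32 at 10 µM (adjusted p = 0.152), or -0.41 with the block (adjusted p = 0.0182). Both CHEK1 and CHEK2 were past the threshold at 10 µM without control 1 (adjusted p = 0.0413 and 0.0496).

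ATM and ATR, the kinases at the head of the checkpoint, were not past the threshold in either comparison with the controls. ATM had 96.3, 140.9 and 109 CPM at 10 µM and 99.0 CPM at 20 µM, against 60.0, 99.7, 89.5 and 80.2 CPM in the controls. Replicate 2 at 10 µM and the 20 µM library lay below control 2, and the log2 fold change was 0.48 at 10 µM (SE 0.19, edgeR adjusted p = 0.104) and 0.43 in all treated libraries (SE 0.19, adjusted p = 0.137). ATM was the gene of the 36 with the highest share of its control mean in the 20 µM library, 120%. ATR stood at 53.2 ± 4.20 CPM at 10 µM and 54.2 ± 6.53 CPM in the controls (SD, n = 3 and 4), a difference within the spread, and at 34.3 CPM at 20 µM. In the 20 µM library against 10 µM, 6 of the 7 checkpoint genes were lower: CLSPN, CHEK1 (-0.95), CHEK2 (-0.84), TOPBP1 (-0.74), TIMELESS (-0.69) and ATR (-0.65). CHEK2, TOPBP1 and ATR lost that call without 10 µM replicate 3 (adjusted p = 0.0531, 0.0582 and 0.0672), TOPBP1 also without control 2 or 4, and ATR also without control 4 (adjusted p = 0.0532 to 0.0571).

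Compared per length (TPM, transcripts per 1000000, over the union of a gene's exons), TIMELESS, which stabilises replication forks, was the most abundant of the 36 in the controls at 165 ± 6.88 TPM (SD, n = 4). It was followed by FANCI at 142 ± 9.52 and EXO1 at 129 ± 6.63 TPM, then by CLSPN at 124 ± 14.3 and RAD54L at 122 ± 4.63 TPM. EXO1, CLSPN and RAD54L did not differ beyond their spread. At the low end stood BRCA2 at 9.88 ± 1.61, FANCM at 9.31 ± 1.27 and RAD51D at 8.75 ± 0.550 TPM, again within each other's spread.

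Genes of the same pathways outside the 36 are set here beside the 9.79% of all genes that fell and the 9.34% that rose at 10 µM. For the 20 µM library against 10 µM, each list is given by its median log2 difference, beside 0.01 over all genes tested. Of 29 other recombination genes, 1 fell at 10 µM (RPA2, a subunit of the single-strand binding protein RPA, -0.38) and 0 rose. Their median in the 20 µM library against 10 µM was -0.51. Of 14 other Fanconi genes, 1 fell (CENPX, -0.92) and 1 rose (WDR48, 0.48) at 10 µM. In the 20 µM library against 10 µM their median was -0.42, with 8 negative and 6 positive. FANCB stood at -1.45 there and UBE2T, the enzyme that donates ubiquitin to FANCD2, at -1.57. Of 7 other mismatch repair genes, edgeR and DESeq2 called 0 at 10 µM, with 0 at an unadjusted p under 0.05. In the 20 µM library against 10 µM their median was -0.97, and PCNA, the sliding clamp of replication, stood at -1.89. Among 19 other checkpoint genes the calls at 10 µM were split, with 2 lower (CDC25A, a phosphatase that drives entry into S phase, -0.75, and TIPIN, the partner of TIMELESS, -0.59) and 2 higher (WEE1, which restrains mitosis, 0.40, and CDC25C, 0.50). Their median in the 20 µM library against 10 µM was -0.25, with 12 negative and 7 positive. Against the control mean, the median of this list in the 20 µM library was -0.03. Of 12 end joining genes, 3 fell at 10 µM (PAXX, -0.70, PARP1, -0.50, and XRCC5, -0.41) and 1 rose (LIG4, the ligase of that pathway, 0.58). Their median in the 20 µM library against 10 µM was -0.50. Of 20 excision repair genes, 4 fell at 10 µM (among them NTHL1, -0.76, UNG, -0.61, and POLB, -0.42) and 3 rose (XPC, 0.66, ERCC1, 0.62, and ERCC6, 0.44). Their median in the 20 µM library against 10 µM was -0.38. TIPIN, PARP1, XRCC5, NTHL1 and UNG were named after their values were seen.

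Proliferation genes were lower in the same libraries. In a list of 25 that includes MKI67, the MCM helicase genes and cyclins, 10 fell and 1 rose at 10 µM. Over all genes tested 9.79% fell and 9.34% rose there. In the 20 µM library against 10 µM the median log2 difference of the list was -1.22, with 24 negative and 1 positive, beside 0.01 over all genes tested. All 25 were detected in every library, with 0 at 0 counts. Their summed level was 4364 to 5152 CPM at 10 µM, 2720 CPM at 20 µM and 5814 to 6822 CPM in the controls. The sum at 20 µM includes 604 CPM of CDKN1A, an inhibitor of the cell cycle that is in this list. For the 36 genes the summed level was 2668 to 3137 CPM at 10 µM, 1691 CPM at 20 µM and 2937 to 3251 CPM in the controls. MYBL2 fell at 10 µM (-0.67, edgeR adjusted p = 0.0101), as did CCNB1 (-0.74, adjusted p = 0.0175). MKI67 (-0.39) and E2F1 (-0.29) were not past the threshold there. CDKN1A, an inhibitor of cyclin-dependent kinases, was the gene that rose, to 59.1 CPM on average at 10 µM and 604 CPM at 20 µM, against 11.0 CPM in the controls. The part of proliferation in the levels of the 36 genes was not tested.

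**Figure D4:**
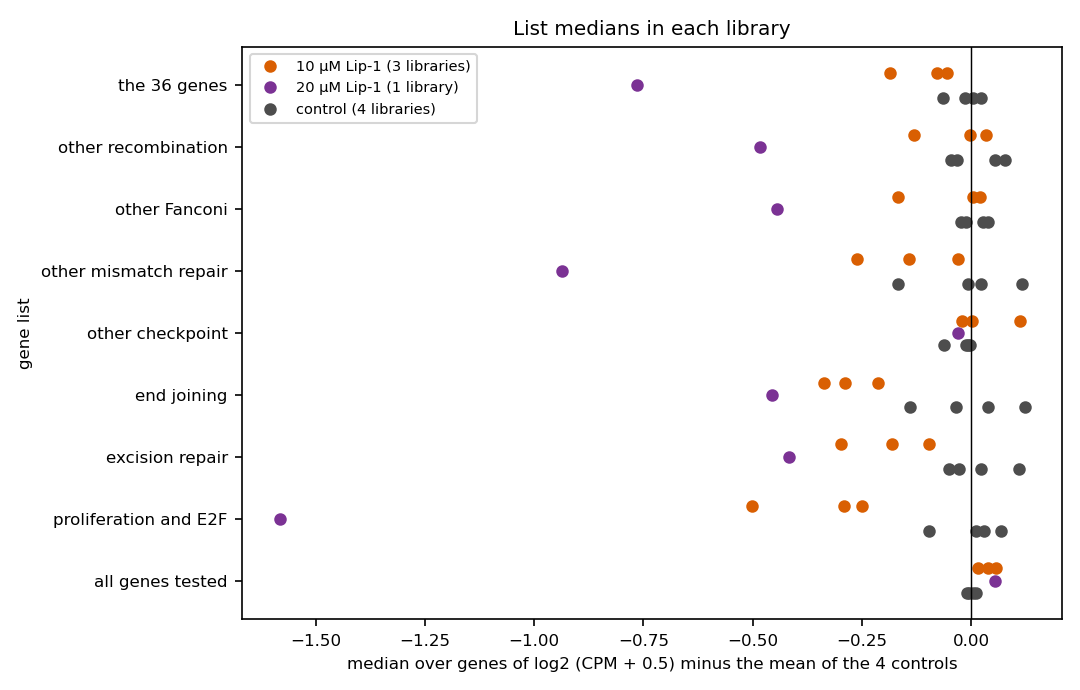
Median over the genes of each list (rows) of the log2 difference from the control mean, with 1 point per library at 10 µM, at 20 µM and in the controls. The 36 genes stand at -0.06 to -0.19 in the 10 µM libraries and -0.76 in the 20 µM library, and the proliferation list at -0.25 to -0.50 and -1.58, while the median of all tested genes stays between -0.01 and 0.06.

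Some counts may hold reads of other genes. Of the 36, 21 overlap an exon of another annotated gene and 14 an exon of a protein-coding gene. FANCI overlaps POLG on the other strand, and POLG fell at 10 µM (-0.42, edgeR adjusted p = 0.0135) and was higher in the 20 µM library than at 10 µM (0.76, adjusted p = 0.00330), opposite to FANCI there. CHEK2, FANCD2 and RAD51AP1 have annotated pseudogene copies, and the split of their counts is likewise uncertain.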

How the data were processed

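Total RNA of 8 K562 libraries was sequenced after removal of ribosomal RNA, per the labels' protocols. Raw counts, whole numbers for each gene in each library, were deposited as 1 table, and whether they had been normalized is not given in the sources used here. The submitters' processing notes name the hg38 build and bcl2fastq 2.0, HISAT2, StringTie, DESeq2 and limma, but what each did is not given in the sources used here. Low values were not spaced like single reads (401 entries at 1 count and 2958 at 4 counts), so a count may not be 1 read. Beside 19447 named genes, 9 lines had no name and entered neither the totals nor the tests.

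Tests used R 4.3.3 and edgeR 4.0.16: filterByExpr, TMM scaling and the quasi-likelihood test, two-sided, with Benjamini-Hochberg adjustment over all genes tested at 0.05. The SE is the size of the log2 fold change over the square root of F. All treated libraries were set against the controls, and a fit with 3 dose levels gave 10 µM against control and the 20 µM library against 10 µM. CPM are counts per 1000000 of the library total times its TMM factor (0.903 to 1.09), and TPM used exon lengths from GENCODE release 29, which matched 19029 symbols. Each test script was tested on simulated data with known changes. Alternatives were DESeq2 1.42.0, limma 3.58.1 with voom, other scalings and filters, a replicate block, libraries named in digits or in letters alone, and leaving out each library. Total counts ran from 71151415 to 141307169.

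Replicate numbers recur in the control and the treated groups. Across genes, same-numbered libraries deviated together from their group means (log2 CPM, prior count 2), with r of 0.45, 0.25, 0.39 and 0.26 for numbers 1 to 4. When 10 µM alone was used, r was 0.14, 0.23 and 0.42 for numbers 2 to 4. The main tests nonetheless did not pair the libraries, and the replicate block was run as an alternative. Some libraries with different numbers also deviated together: control 2 with treated 3 (0.31, above 0.25 for its own number) and control 3 with treated 2 (0.24), all 4 named in digits, and control 4 with treated 1 (0.16), both named in letters. A pairing by number would rest on the data alone, since the labels do not say what a number stands for. It cannot be told apart in full from the naming.

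The 36 genes, the other lists and the tests were chosen with earlier results of these data known. Values per library are given for genes past the threshold in either comparison with the controls and for the 2 smallest p in each role. Of each other list at most 4 genes with the smallest p were named, with CDKN1A, MKI67, PCNA, E2F1, MYBL2, FANCB and UBE2T. SLX1A, MDC1 and some tissue markers were named after their values were seen. Results on some genes are not reported here. Promoters were matched by symbol in the RefSeq table, 32 of 36, and 6 were printed.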

Additional observations from a re-analysis of the deposited data

Results flagged for a closer look

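In 6 of the 36 genes, 1 control stood far from the other 3. The test looks at the gap between the highest or lowest of the 4 controls and its neighbour as a share of their range, and chance alone marks about 1 in 20 groups. The share marked over all genes was not determined, so the count is not shown to be particular to these 36.

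Control 4 was high in 3 of them. BARD1 stood at 23.1 CPM in control 4 and at 17.0 to 17.8 CPM in the other controls, RAD51D at 26.0 CPM beside 24.4 to 24.6 CPM, and MSH6 at 304.8 CPM beside 242.6 to 245.7 CPM. Control 1 stood apart in the others, high in XRCC3 at 44.4 CPM beside 35.3 to 36.5 CPM and in FANCG at 33.2 CPM beside 28.9 to 29.6 CPM, and low in RAD50 at 133.4 CPM beside 157.7 to 162.7 CPM. Controls 1 and 4 are those with library names in letters. Without control 1, XRCC3 had a log2 fold change of -0.47 in all treated libraries against control (edgeR adjusted p = 0.0737), beside -0.55 with it.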

How the results depend on the processing

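In all treated libraries against control, the 1 gene called was also the count with scaling by upper quartile or relative log expression, no filter, a filter of 1 CPM in 4 libraries and limma-voom. Those settings called 8.22% to 17.8% of all genes, beside 14.2% in the main fit. DESeq2 called 4, the replicate block 3 and the libraries named in digits alone 4 (RAD51C and CHEK2 lower, BRIP1 and RMI2 higher). Of all genes, 25.9%, 21.5% and 24.2% were called there. The libraries named in letters alone gave 0, where edgeR called 0 of all genes and 5 of the 36 had an unadjusted p under 0.05. Leaving out 1 library gave 0 to 9, beside 0.475% to 22.9% of all genes. At 10 µM against control 8 genes were called, beside 19.1% of all genes. Other settings gave 8 to 12, with the block at 12, beside 15.1% to 31.3% of all genes. Leaving out 1 library gave 1 to 8, beside 9.20% to 18.9% of all genes. The count was 1 without 10 µM replicate 4, 2 without replicate 3, and 3, 2 and 4 without controls 2, 3 and 4. In the 20 µM library against 10 µM, the median log2 difference of the 36 was -0.70 (block) to -0.76 in the alternatives. Over all genes tested it was -0.06 to 0.04 there. Leaving out 1 library gave -0.75 to -0.86 in the 36, beside 0 to 0.01 over all genes tested. Beyond the calls given above, the block changed no call in the 36 genes. FANCM missed the threshold under relative log expression (adjusted p = 0.0585). No gene called in a main comparison changed sign in that comparison in any setting run. BRIP1, called only in the libraries named in digits (0.52), was at -0.48 in those named in letters. The cause of the lost calls was not tested. The median over all genes in that first comparison was 0.08 with TMM, 0.07 with relative log expression and 0.14 with upper-quartile scaling, so small fold changes depend on the scaling, and calls over all genes split into 979 higher and 876 lower with TMM but 1147 and 728 with upper-quartile scaling. The 20 µM group has a single library, and the day label separates treated from control libraries.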
